A study of Homo sapiens with 18 samples.

Results

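GDF15 and 8 effector genes of cellular stress, DDIT3, TRIB3, CHAC1, ATF5, PPP1R15A, CEBPB, CEBPG and NUPR1, were followed across 18 RNA sequencing libraries of HEK-293T cells. They were taken by gene symbol from the table of raw counts, as 9 of its 59251 rows, and 1 row matched each symbol. The study built a split form of Csy4, a bacterial CRISPR endoribonuclease that cuts RNA at a short hairpin, whose parts are brought together by the hepatitis C protease inhibitor grazoprevir. HEK-293T is a line from human embryonic kidney that carries the simian virus large T antigen, a protein that binds p53. There were 6 groups of 3 libraries. Untransfected cells received DMSO (labelled 0.5 µM), rapamycin, an inhibitor of the kinase mTOR (0.1 µM), or grazoprevir (0.5 µM). Transfected cells received full-length Csy4 with DMSO (wtCsy4), split Csy4 with DMSO (SplitCsy4_DMSO, here called untriggered) or split Csy4 with grazoprevir (SplitCsy4_Grazoprevir, called triggered). Their labels place DMSO (0.5 µM) or grazoprevir (0.5 µM) at 6 hours after transfection. All groups share the cell line and 70000 cells at treatment. No label names cells transfected without a Csy4 construct, so transfection, construct and enzyme cannot be told apart in any comparison of transfected with untransfected cells. Separate cultures are not named for the 3 libraries of any group, so the p-values may measure only technical spread between these samples.

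In the integrated stress response, kinases that sense amino acid shortage, misfolded protein, viral RNA or mitochondrial trouble phosphorylate the initiation factor eIF2, which lowers protein synthesis but favours translation of the transcription factor ATF4. ATF4 induces DDIT3 (the factor CHOP), TRIB3, CHAC1, ATF5, CEBPB, CEBPG and NUPR1, while PPP1R15A (GADD34) brings a phosphatase to eIF2 and ends the response. GDF15 is a secreted cytokine of the TGF-beta superfamily that acts on the brainstem receptor GFRAL and is induced by ATF4, CHOP and p53.

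Library totals were 12362101 to 19095828 counts, and 17966 genes had enough counts to be tested. All 9 genes passed this filter, whose lower limit was about 0.681 CPM in at least 3 libraries (CPM is a gene's count scaled to a common library total). NUPR1 passed through the full-length Csy4 libraries alone, GDF15 was above the limit in every library of 4 groups and CHAC1 in every library of 5. Of the markers of HEK-293 lines, VIM, KRT8, KRT18 and CDH2 were present in every library, while the neurofilament gene NEFM was at 0 in 16 of 18. The 11 markers of fibroblasts, blood, liver and endothelium summed to 40.9 to 43.8 CPM with DMSO, 35.0 to 39.1 with grazoprevir and 29.7 to 31.0 with rapamycin. The range was 22.1 to 27.4 CPM in full-length Csy4 libraries, 29.7 to 32.7 in untriggered ones and 26.3 to 32.5 in triggered ones. COL3A1 made up most of this (19.5 to 41.5 CPM), and CD3E and HBB were at 0 in all 18 libraries. The part of these markers in the results was not tested.

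Full-length Csy4 was the condition with the highest levels of the genes that rose in transfected cells. Against DMSO, GDF15, DDIT3, ATF5, PPP1R15A and NUPR1 rose and none of the 9 fell. These 5 of 9 calls stand beside 46.9% of all tested genes called in the same comparison (22.9% higher, 24% lower), so the share of members called was near the background. NUPR1 was tested only because of its level in the full-length libraries, and without it 4 of 8 were called. With untriggered split Csy4, 3 of 9 rose (GDF15, DDIT3 and PPP1R15A), against 28.9% of all genes called (14.8% higher, 14.1% lower). With triggered split Csy4 the same 3 genes rose, against 31.6% of all genes called (16% higher, 15.6% lower). Rapamycin gave 6 calls of 9, against 33.2% of all genes (17.2% higher, 16% lower): GDF15 and PPP1R15A rose, and TRIB3, CHAC1, CEBPB and CEBPG fell. Grazoprevir alone gave 0 calls of 9, against 0.2% of all genes (36 of 17966, 0.106% higher and 0.0946% lower), and edgeR and DESeq2 each put 0 of the 9 below an unadjusted p of 0.05. The libraries of the 2 groups did not overlap for 4 of the 9 genes with full-length Csy4 against DMSO (54% of all genes), 3 with untriggered (40.6%) and 4 with triggered split Csy4 (43.3%). They did not overlap for 6 genes with rapamycin (43.6%) and for 1, DDIT3, with grazoprevir (13.4%). These comparisons share the DMSO libraries. The median log2 fold change of the 9 genes was 0.45 with full-length, 0.20 with untriggered and 0.28 with triggered split Csy4, and -0.26 with rapamycin, while the median of all tested genes lay between -0.01 and 0.02 in each. Calls are edgeR quasi-likelihood tests with Benjamini-Hochberg adjusted p below 0.05 over all tested genes. In bulk RNA, a change in the number of cells that carry a transcript and a change in its amount per cell cannot be told apart.

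**Figure D1:**
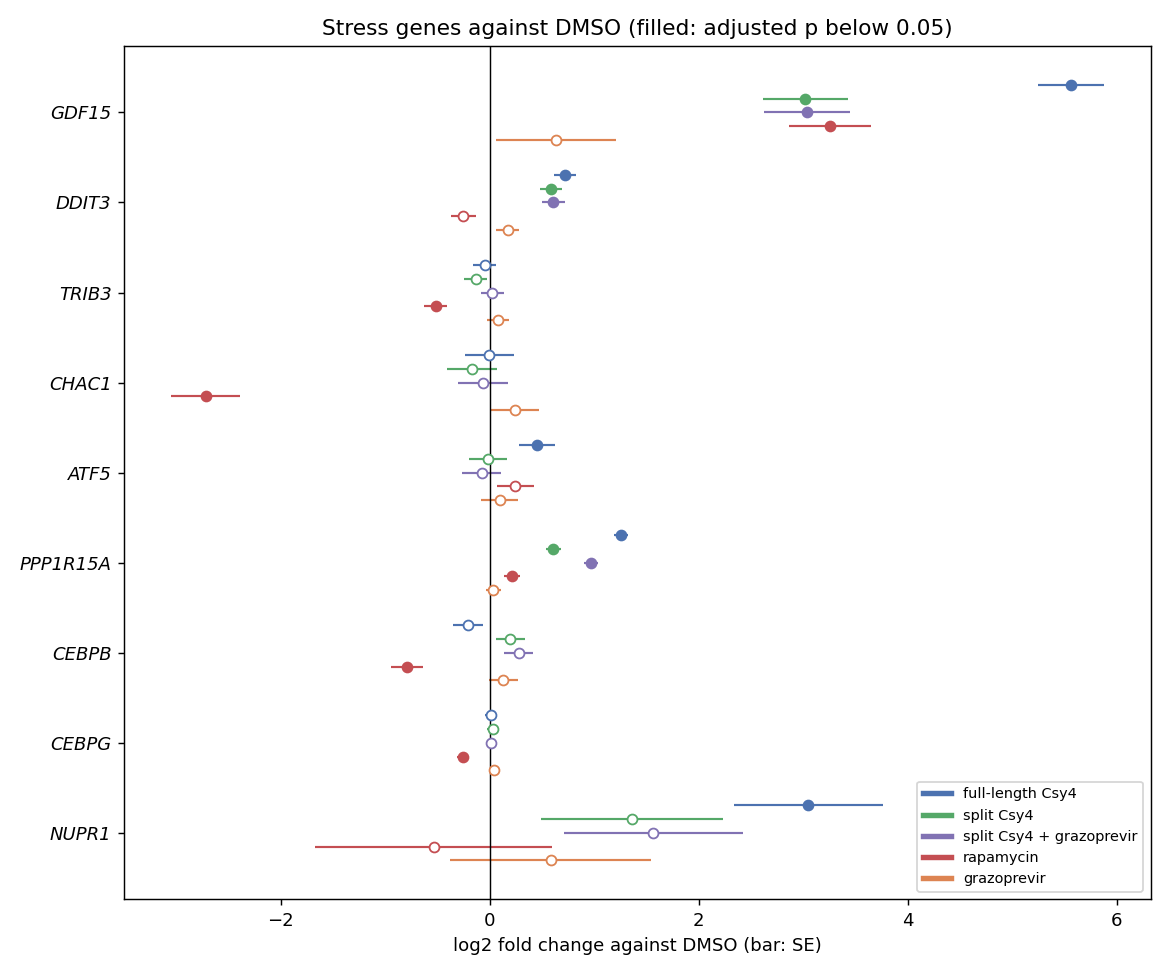
Log2 fold change of the 9 genes against DMSO (horizontal axis, edgeR fit, bars show the standard error), 1 colour per condition with 3 libraries each, filled points for adjusted p below 0.05. GDF15 with full-length Csy4 lies farthest to the right at 5.57 and CHAC1 with rapamycin farthest to the left at -2.72, while all 9 grazoprevir points are open.

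GDF15, the secreted cytokine, lies at chr19:18386158-18389176 (plus strand, GRCh38.p14), and its transcribed span includes the microRNA gene MIR3189. The 250 bases before its start site (chr19:18385908-18386157) are printed because this gene moved most. They were read from RefSeq on GRCh38.p14, as were all windows below. Each window was searched on both strands for TGATGNAA, the composite element bound by ATF4 with C/EBP factors (found in 3.62% of 35114 RefSeq promoter windows), for the cyclic AMP response element TGACGTCA (1.85%) and for the AP-1 site TGACTCA (4.95%). The search covered 250 bases before to 50 after each start site that has a window, and N stands for any base. The TRIB3 windows begin at chr20:381045 or later, downstream of its annotated gene start at chr20:380760, so bases before that start were not searched. No match was found in any window of GDF15, TRIB3 or CEBPB, ATF5 had TGACTCA in 1 of its 3 windows, at position -188 from the start, and capitals in the later sequences mark matches.
GDF15: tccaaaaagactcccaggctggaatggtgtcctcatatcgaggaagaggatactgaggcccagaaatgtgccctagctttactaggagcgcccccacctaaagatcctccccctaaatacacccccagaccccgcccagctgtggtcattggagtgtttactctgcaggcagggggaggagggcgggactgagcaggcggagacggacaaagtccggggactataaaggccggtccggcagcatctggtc
GDF15 counts were 7, 5 and 0 in the DMSO libraries and 2, 7 and 8 with grazoprevir. They were 28, 33 and 45 with rapamycin, 23, 28 and 38 with untriggered split Csy4 and 31, 27 and 25 with triggered split Csy4. With full-length Csy4 they were 162, 149 and 212. The 3 full-length libraries thus stood far above all others, rapamycin and the split enzyme formed a middle level whose libraries overlapped, and DMSO and grazoprevir overlapped at the bottom. Mean levels were 0.228 ± 0.20 CPM (SD, n = 3) with DMSO, 0.372 ± 0.20 with grazoprevir and 2.38 ± 0.46 with rapamycin. They were 2.02 ± 0.39 with untriggered, 2.05 ± 0.30 with triggered and 11.8 ± 1.7 CPM with full-length Csy4.

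Full-length Csy4 against DMSO gave a GDF15 log2 fold change of 5.57 ± 0.31 (SE, adjusted p = 2.17e-26), which ranked 8 among the rises of all tested genes. As a ratio of summed counts, 523 against 12 and corrected for library size, this was 48.9-fold (exact 95% interval 27.7 to 95.2, counting error only). Against DMSO the rise was 3.02 ± 0.41 with untriggered split Csy4 (adjusted p = 6.96e-09) and 3.04 ± 0.41 with triggered split Csy4 (adjusted p = 5.97e-09). Rapamycin raised it by 3.26 ± 0.39 (adjusted p = 1.45e-10), which ranked 4 among all rises with this drug. Full-length exceeded untriggered split Csy4 by 2.54 ± 0.22 (adjusted p = 5.75e-16) and triggered split Csy4 by 2.53 ± 0.23 (adjusted p = 1.68e-15). Adding grazoprevir to the split enzyme gave a GDF15 log2 fold change of 0.01 ± 0.28 (adjusted p = 0.997), with a 95% interval of -0.53 to 0.56. With the drug held constant, triggered split Csy4 exceeded grazoprevir alone by 2.40 ± 0.38 (adjusted p = 4.32e-07). The low DMSO counts limit the size of every fold against that group.

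**Figure D2:**
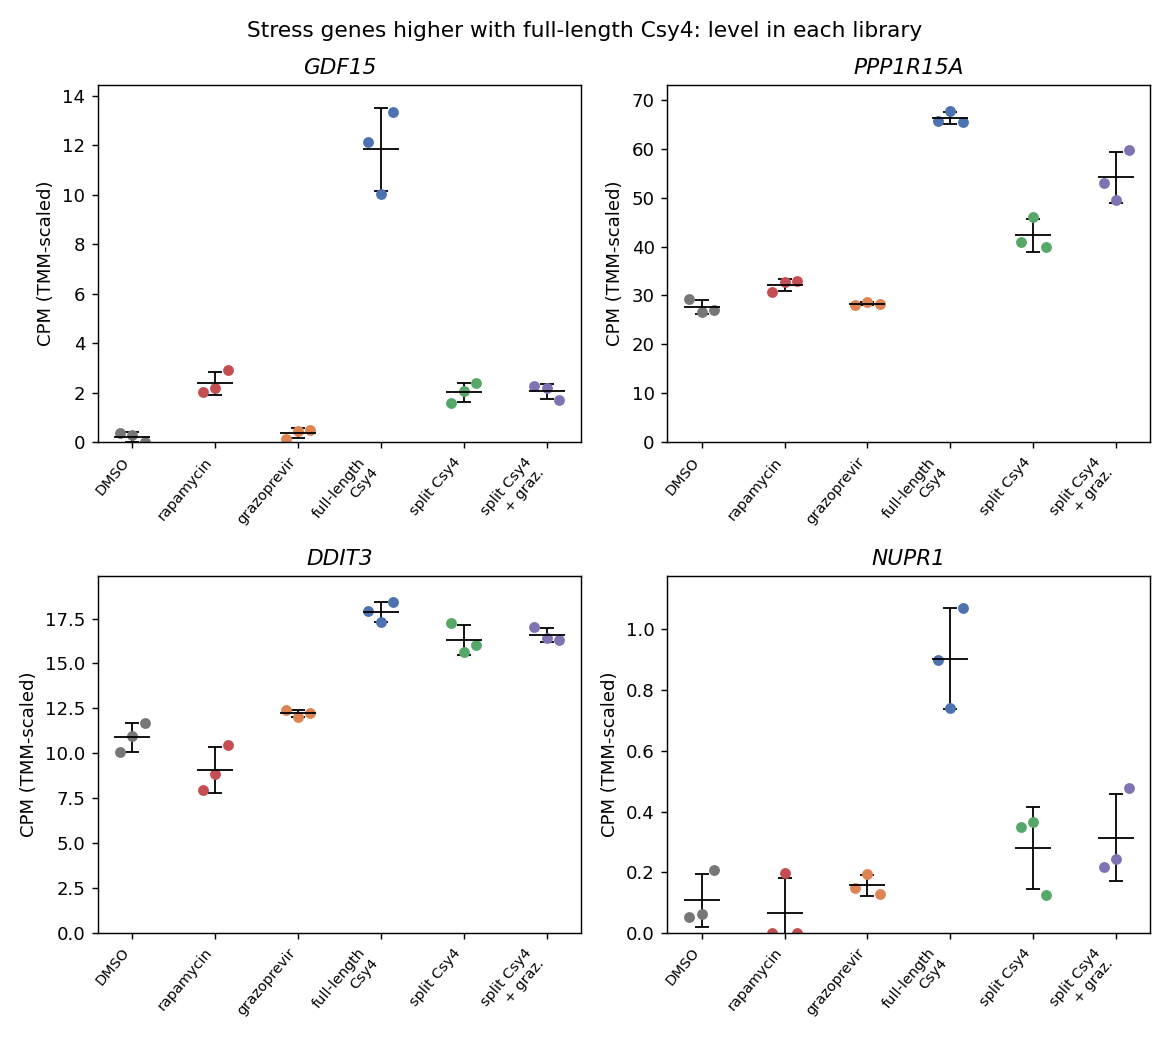
Level of GDF15, PPP1R15A, DDIT3 and NUPR1 in each library (vertical axes, CPM scaled with TMM factors, starting at 0), 1 point per library and 3 per group, with the group mean and SD as bars. The full-length Csy4 libraries are the highest in all 4 panels, and PPP1R15A steps up from 27.6 CPM with DMSO through 42.3 and 54.1 CPM with the split enzyme to 66.2 CPM.

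PPP1R15A, the inducible subunit of the eIF2 phosphatase, was the gene that separated the groups in the most even steps. It lies at chr19:48872421-48876058 (plus strand). The 250 bases before its start site (chr19:48872171-48872420) hold the cyclic AMP response element TGACGTCA, in capitals, at position -58 from the start.
PPP1R15A: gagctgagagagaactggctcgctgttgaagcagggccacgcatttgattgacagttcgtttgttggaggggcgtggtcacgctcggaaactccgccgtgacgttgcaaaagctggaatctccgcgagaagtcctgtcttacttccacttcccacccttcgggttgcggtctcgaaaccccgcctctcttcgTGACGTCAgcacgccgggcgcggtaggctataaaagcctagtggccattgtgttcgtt
Its levels were 29.3, 26.5 and 27.0 CPM with DMSO and 28.0, 28.7 and 28.3 with grazoprevir. Rapamycin libraries had 30.7, 32.7 and 32.9 CPM, untriggered split Csy4 40.9, 46.1 and 39.8, and triggered split Csy4 53.1, 49.6 and 59.7. Full-length Csy4 libraries had 65.6, 67.6 and 65.4 CPM. Ordered by mean, each group's libraries lay entirely above those of the next group, with DMSO and grazoprevir as the only overlapping neighbours. Against DMSO the log2 fold change was 1.26 ± 0.069 with full-length (adjusted p = 3.37e-27), 0.61 ± 0.072 with untriggered (adjusted p = 1.04e-10) and 0.97 ± 0.070 with triggered split Csy4 (adjusted p = 1.13e-19). Full-length exceeded untriggered split Csy4 by 0.65 ± 0.066 (adjusted p = 3.01e-13) and triggered split Csy4 by 0.29 ± 0.065 (adjusted p = 0.000404, lost in a test against a 1.2-fold change at adjusted p = 0.843). Triggered split Csy4 exceeded grazoprevir alone by 0.93 ± 0.071 (adjusted p = 1.59e-18).

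PPP1R15A was also the 1 gene of the 9 called between triggered and untriggered split Csy4, where 0.2% of all genes were called (0.195% higher, 0.00557% lower). It was also the 1 gene whose libraries did not overlap there (13.3% of all genes). It rose by a log2 fold change of 0.36 ± 0.068 (adjusted p = 0.00124), from 42.3 ± 3.4 to 54.1 ± 5.2 CPM, with all 3 triggered libraries above all 3 untriggered ones. The call was lost without untriggered replicate 3 (0.32, adjusted p = 0.0572), without triggered replicate 3 (0.28, adjusted p = 0.124) and in the 1.2-fold test (adjusted p = 1). In untransfected cells grazoprevir changed it by 0.04 ± 0.075 (adjusted p = 0.945). The interaction term, which subtracts the drug's effect in untransfected cells from its effect beside split Csy4, was 0.33 ± 0.10 (adjusted p = 0.161 in edgeR), so the 2 effects were not shown to differ. It called 0 of the 9 genes against 0.351% of all genes (0.178% higher, 0.173% lower), with 1 of 9 below an unadjusted p of 0.05 in edgeR and in DESeq2. Rapamycin raised PPP1R15A by 0.22 ± 0.074 (adjusted p = 0.0173). That call was lost without DMSO replicate 2 (adjusted p = 0.0837), DMSO replicate 3 (0.0594), rapamycin library B (0.0591) or C (0.0686), and in the 1.2-fold test (adjusted p = 1). PPP1R15B, the constitutive subunit of the same phosphatase, rose by 0.25 ± 0.045 with full-length (adjusted p = 2.21e-06), 0.21 ± 0.045 with untriggered (adjusted p = 0.000172) and 0.33 ± 0.045 with triggered split Csy4 (adjusted p = 9.6e-09). Both calls with the split enzyme were lost in the 1.2-fold test, where 0 genes of its list rose in either split group. The full-length estimate is itself smaller than 1.2-fold. In that test 1 gene of the list rose with full-length Csy4, which is not shown to be PPP1R15B.

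DDIT3, the pro-apoptotic factor CHOP, rose in all 3 transfected groups to levels close to each other. It lies at chr12:57516588-57520517 (minus strand). The 250 bases before one of its start sites (chr12:57520515-57520764) hold TGACTCA at position -241 from the start.
DDIT3: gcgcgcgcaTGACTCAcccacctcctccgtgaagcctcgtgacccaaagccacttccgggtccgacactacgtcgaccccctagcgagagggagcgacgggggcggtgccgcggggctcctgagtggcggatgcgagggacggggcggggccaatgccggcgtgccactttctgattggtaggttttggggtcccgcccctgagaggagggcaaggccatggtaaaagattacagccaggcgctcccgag
Its levels were 10.1, 11.0 and 11.7 CPM with DMSO, 12.4, 12.03 and 12.2 with grazoprevir and 7.94, 8.87 and 10.5 with rapamycin. They were 17.3, 15.6 and 16.0 CPM with untriggered split Csy4, 17.0, 16.4 and 16.3 with triggered split Csy4, and 17.9, 17.3 and 18.4 with full-length Csy4. Every transfected library was above every untransfected one, and the split groups overlapped. Against DMSO the log2 fold changes were 0.72 ± 0.11 with full-length (adjusted p = 2.45e-08), 0.59 ± 0.11 with untriggered (adjusted p = 1.09e-05) and 0.61 ± 0.11 with triggered split Csy4 (adjusted p = 4.58e-06). Full-length exceeded untriggered split Csy4 by 0.13 ± 0.10 (adjusted p = 0.372, 95% interval -0.07 to 0.33). The value with rapamycin was -0.25 ± 0.12 (adjusted p = 0.0922), and without rapamycin library C it was -0.37 with an adjusted p of 0.0303. Triggered split Csy4 exceeded grazoprevir alone by 0.44 ± 0.11 (adjusted p = 0.000802, lost in the 1.2-fold test at adjusted p = 0.148). Reads of DDIT3 may be shared with overlapping genes, since its 3' end overlaps MARS1, on which 50459 counts fell in all, and the strand setting of the counting is not given in the sources used here.

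NUPR1, a small stress-induced chromatin protein, lies at chr16:28532708-28538974 and had very few counts in every group but full-length Csy4. Its counts were 1, 1 and 3 with DMSO, 2, 3 and 2 with grazoprevir and 0, 3 and 0 with rapamycin. They were 5, 5 and 2 with untriggered and 3, 3 and 7 with triggered split Csy4, and 12, 11 and 17 with full-length Csy4. The full-length libraries stood above all 15 others, and the other groups overlapped their neighbours. Since NUPR1 passed the filter through the full-length libraries alone, its tests against that group start from a choice that favours a difference, and its values there are a description. Full-length Csy4 against DMSO gave a log2 fold change of 3.05 ± 0.72 (adjusted p = 0.000235), and 3.02 with no filter (adjusted p = 0.0016). The ratio of 40 to 5 counts, corrected for library size, was 8.97 (exact 95% interval 3.54 to 29.1, counting error only), and without DMSO replicate 3 the log2 fold change was 3.79. Against untriggered split Csy4 it was 1.69 ± 0.62 (adjusted p = 0.0306), but this call was lost when any one of the full-length libraries 1 and 3 or any untriggered library was left out (adjusted p = 0.0523 to 0.177), with DESeq2 (adjusted p = 0.0606), with no filter (0.139) and in the 1.2-fold test (0.132). Against triggered split Csy4 it was 1.48 ± 0.61 (adjusted p = 0.0689), and with only the groups compared in the fit the adjusted p was 0.0314. The split enzyme against DMSO gave 1.36 ± 0.87 untriggered (adjusted p = 0.253) and 1.57 ± 0.86 triggered (adjusted p = 0.161).

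CHAC1, an enzyme that degrades glutathione, had the largest fall of the 9 genes, with rapamycin, and was called in no other comparison. It lies at chr15:40953471-40956512 (plus strand). The 250 bases before its start (chr15:40953221-40953470) hold the reverse complement of TGATGNAA, in capitals, at position -209 from the start.
CHAC1: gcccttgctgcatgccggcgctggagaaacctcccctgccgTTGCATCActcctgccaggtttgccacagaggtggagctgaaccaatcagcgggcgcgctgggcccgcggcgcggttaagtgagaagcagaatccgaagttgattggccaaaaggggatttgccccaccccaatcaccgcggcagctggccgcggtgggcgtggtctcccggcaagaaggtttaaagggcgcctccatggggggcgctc
CHAC1 counts were 52, 68 and 57 with DMSO and 7, 9 and 8 with rapamycin. The other groups held 49 to 80 counts with grazoprevir, 38 to 74 with full-length Csy4, and 39 to 51 and 42 to 53 with the untriggered and the triggered split enzyme. The 3 rapamycin libraries lay far below all 15 others, which overlapped throughout. The mean was 3.64 ± 0.79 CPM with DMSO and 0.541 ± 0.048 CPM with rapamycin, and the log2 fold change was -2.72 ± 0.33 (adjusted p = 3.92e-10), rank 17 among all falls with rapamycin. With full-length Csy4 it was -0.003 ± 0.24 (adjusted p = 0.993, 95% interval -0.47 to 0.46), and its sign depends on the setting.

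TRIB3, a pseudokinase that restrains AKT and ATF4, lies at chr20:380760-397559 and also fell with rapamycin. Its levels were 15.03, 15.6 and 17.9 CPM with DMSO and 12.6, 10.9 and 10.3 with rapamycin, which did not overlap. The log2 fold change was -0.52 ± 0.11 (adjusted p = 0.00014). Against DMSO it was -0.05 ± 0.11 with full-length (adjusted p = 0.744), -0.13 ± 0.11 with untriggered (adjusted p = 0.390) and 0.03 ± 0.11 with triggered split Csy4 (adjusted p = 0.886), with 95% intervals that all lay within -0.35 and 0.24. The lowest untriggered library, at 12.4 CPM, reached into the rapamycin range. TRIB1, a relative of TRIB3, fell with full-length Csy4 (-0.22 ± 0.081, adjusted p = 0.0187), and its value with rapamycin was -0.13 ± 0.080 (adjusted p = 0.207).

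The C/EBP factors CEBPB and CEBPG, partners of ATF4 and CHOP on DNA, were lower with rapamycin, and CEBPB was lower with full-length than with split Csy4. CEBPG lies at chr19:33373709-33382686 (plus strand). The 150 bases before its downstream start site (chr19:33373963-33374112) are shown because they hold TGATGCAA, a match to the ATF4 element, at position -42 from that start.
CEBPG: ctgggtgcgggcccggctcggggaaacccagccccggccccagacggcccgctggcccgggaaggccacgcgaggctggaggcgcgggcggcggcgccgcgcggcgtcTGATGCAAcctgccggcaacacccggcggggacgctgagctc
CEBPG was the most abundant of the 9 at 77.8, 79.6 and 86.1 CPM with DMSO, and was 70.8, 63.2 and 69.3 CPM with rapamycin. Its log2 fold change with rapamycin was -0.26 ± 0.052 (adjusted p = 3.7e-05, lost in the 1.2-fold test). All 15 other libraries lay between 77.8 and 86.1 CPM, and the 3 transfected groups differed from DMSO by 0.01 to 0.03 on the log2 scale with standard errors of 0.051. CEBPB, at chr20:50190583-50192690, had 7.09, 8.26 and 7.90 CPM with DMSO and 4.73, 4.04 and 4.65 with rapamycin. It fell with rapamycin by a log2 fold change of -0.79 ± 0.16 (adjusted p = 2.64e-05), and those libraries lay below all others. CEBPB-AS1, an antisense gene with 245 counts in all 18 libraries, overlaps it, so reads of the pair may not be separated.

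CEBPB had 6.45, 7.46 and 6.17 CPM with full-length, 8.11, 9.11 and 9.36 with untriggered and 8.03, 11.0 and 9.16 with triggered split Csy4. The full-length libraries lay below all 6 split libraries and overlapped DMSO. Full-length against untriggered split Csy4 gave -0.40 ± 0.15 (adjusted p = 0.0274), a call lost without full-length replicate 1 (adjusted p = 0.0839) or 3 (0.119), without untriggered replicate 2 (0.0704) or 3 (0.104), with library-size scaling alone (0.0743) and in the 1.2-fold test (0.432). Against triggered split Csy4 it was -0.49 ± 0.15 (adjusted p = 0.0092), lost without full-length replicate 3 (adjusted p = 0.0602), without triggered replicate 2 (0.111) and in the 1.2-fold test (0.273). Against DMSO neither was called: -0.21 ± 0.15 with full-length (adjusted p = 0.249) and 0.28 ± 0.14 with triggered split Csy4 (adjusted p = 0.125).

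ATF5, a factor linked to the mitochondrial unfolded protein response, lies at chr19:49928906-49933935 and overlaps NUP62 and IL4I1 at its 5' end. On NUP62 27265 counts fell in all 18 libraries together. Since the strand setting is not given, reads of ATF5 may be shared with it. Its levels were 5.10, 6.46 and 7.56 CPM with full-length Csy4 and 4.82, 4.07 and 5.15 with DMSO, which overlapped by a little. The untriggered libraries had 4.82, 4.41 and 4.65 CPM and the triggered ones 4.96, 4.39 and 3.96, all below the full-length libraries. ATF5 rose with full-length Csy4 by a log2 fold change of 0.45 ± 0.17 against DMSO (adjusted p = 0.023), by 0.47 ± 0.17 against untriggered (adjusted p = 0.0344) and by 0.53 ± 0.18 against triggered split Csy4 (adjusted p = 0.0216). None of these held up throughout. Against DMSO the call was lost without DMSO replicate 2 (adjusted p = 0.12) or full-length replicate 2 (0.0535) or 3 (0.205), with no filter (0.058) and in the 1.2-fold test (0.164). Against untriggered split Csy4 it was lost without full-length replicate 2 (0.0777) or 3 (0.249) or any untriggered library (0.0562 to 0.0977), with no filter (0.0768) and in the 1.2-fold test (0.348). Against triggered split Csy4 it was lost without full-length replicate 2 (0.0529) or 3 (0.18) or triggered replicate 2 (0.0587) or 3 (0.117), and in the 1.2-fold test (0.287).

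**Figure D3:**
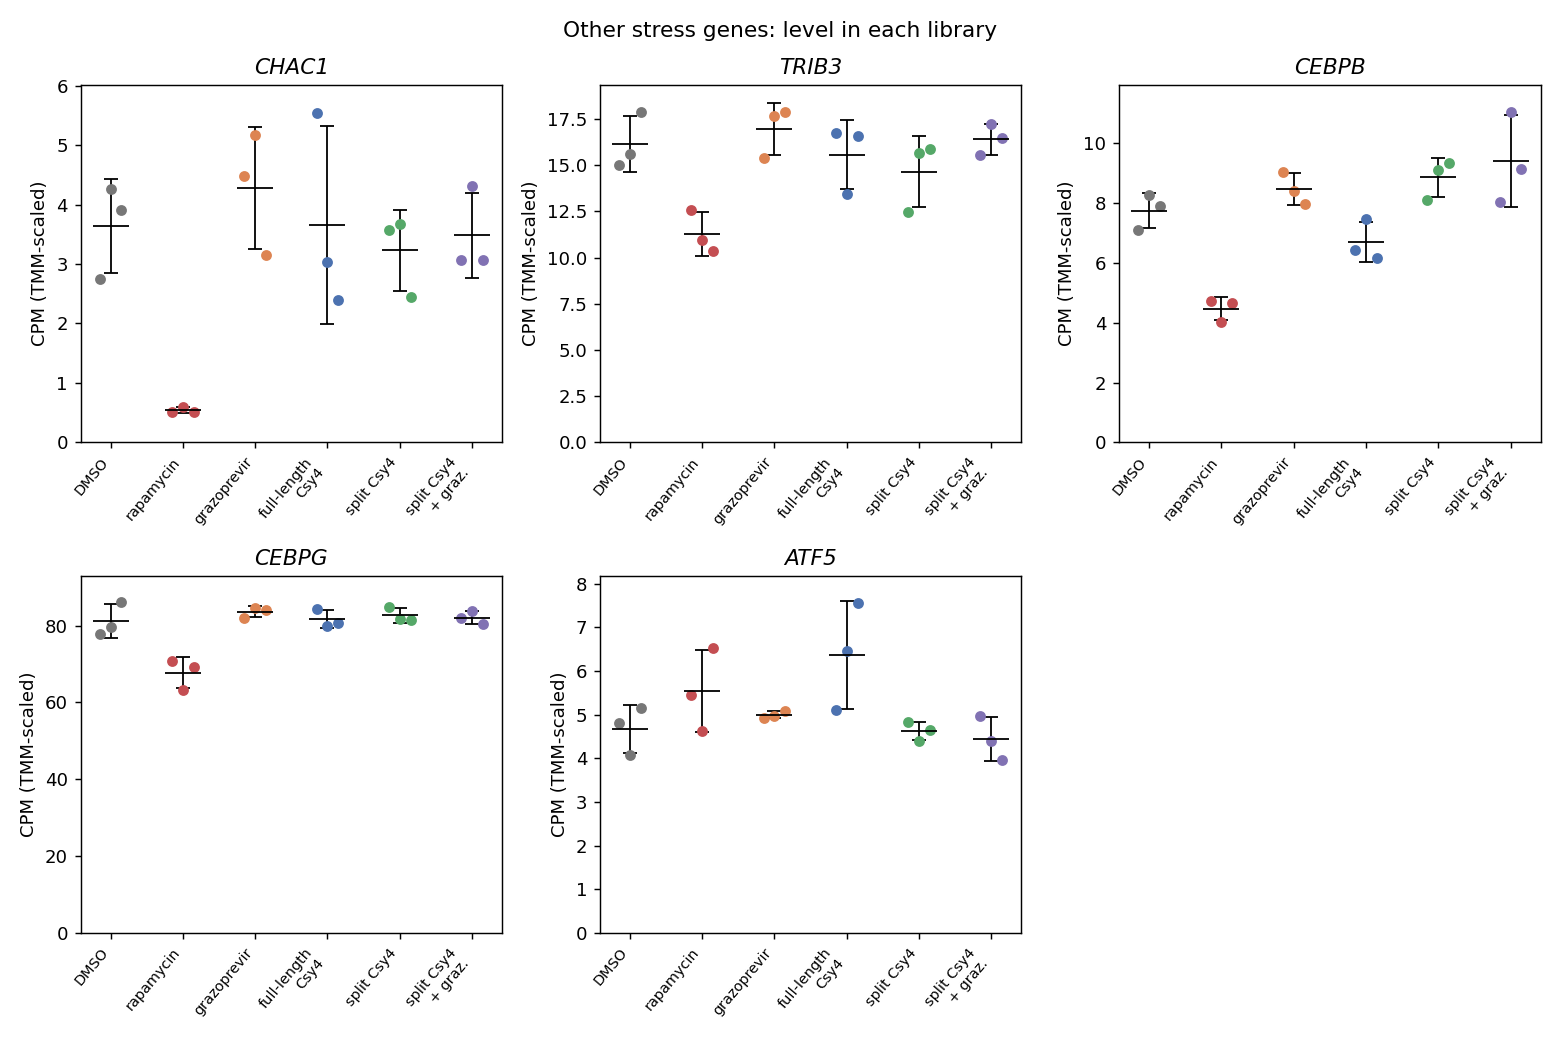
Level of CHAC1, TRIB3, CEBPB, CEBPG and ATF5 in each library (vertical axes, CPM scaled with TMM factors, starting at 0), 1 point per library and 3 per group, with the group mean and SD as bars. Rapamycin is the lowest group for CHAC1, TRIB3, CEBPB and CEBPG, and CHAC1 is at 0.541 CPM there against 3.23 to 4.27 CPM elsewhere.

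Per kilobase of merged exons, the DMSO order from high to low was CEBPG at 18.4 CPM per kilobase, PPP1R15A at 11.6, DDIT3 at 8.34, TRIB3 at 5.58, CEBPB at 3.96, ATF5 at 1.82, CHAC1 at 1.77 and GDF15 at 0.190. With full-length Csy4, PPP1R15A was first at 27.8 and GDF15 reached 9.87, between DDIT3 at 13.7 and TRIB3 at 5.38. With rapamycin, CHAC1 was lowest of these 8 at 0.263 and GDF15 stood at 1.98. NUPR1 was left out because its annotated exons are far longer than its short main transcript.

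The direct comparisons between transfected groups set full-length and split Csy4 side by side. These cells differ in the construct, and full-length and triggered cells also in the drug. The form of the enzyme cannot be told apart from these. Full-length against untriggered split Csy4 gave 5 calls of 9, with GDF15, ATF5, PPP1R15A and NUPR1 higher and CEBPB lower, against 28% of all genes (13.1% higher, 14.9% lower). Without NUPR1, which passed the filter through the full-length libraries alone, 4 of 8 were called. Full-length against triggered split Csy4 gave 4 calls of 9, the same without NUPR1, against 22.3% of all genes (10.1% higher, 12.2% lower). Triggered split Csy4 against grazoprevir alone gave 3 calls, GDF15, DDIT3 and PPP1R15A, against 32.1% of all genes (16.2% higher, 16% lower). Libraries did not overlap for 6 of the 9 genes in each comparison with full-length Csy4 (39.3% of all genes against untriggered, 35.6% against triggered), and for 4 against grazoprevir alone (40.8%). The median absolute log2 fold change of the 9 genes was 0.40 for full-length against untriggered and 0.08 for triggered against untriggered split Csy4, beside 0.18 and 0.08 for all tested genes. With library-size scaling alone, the share of higher genes among all calls moved from 48.8% to 61.1% for full-length Csy4 against DMSO, from 46.7% to 67.8% against untriggered and from 45.5% to 67.5% against triggered split Csy4.

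**Figure D4:**
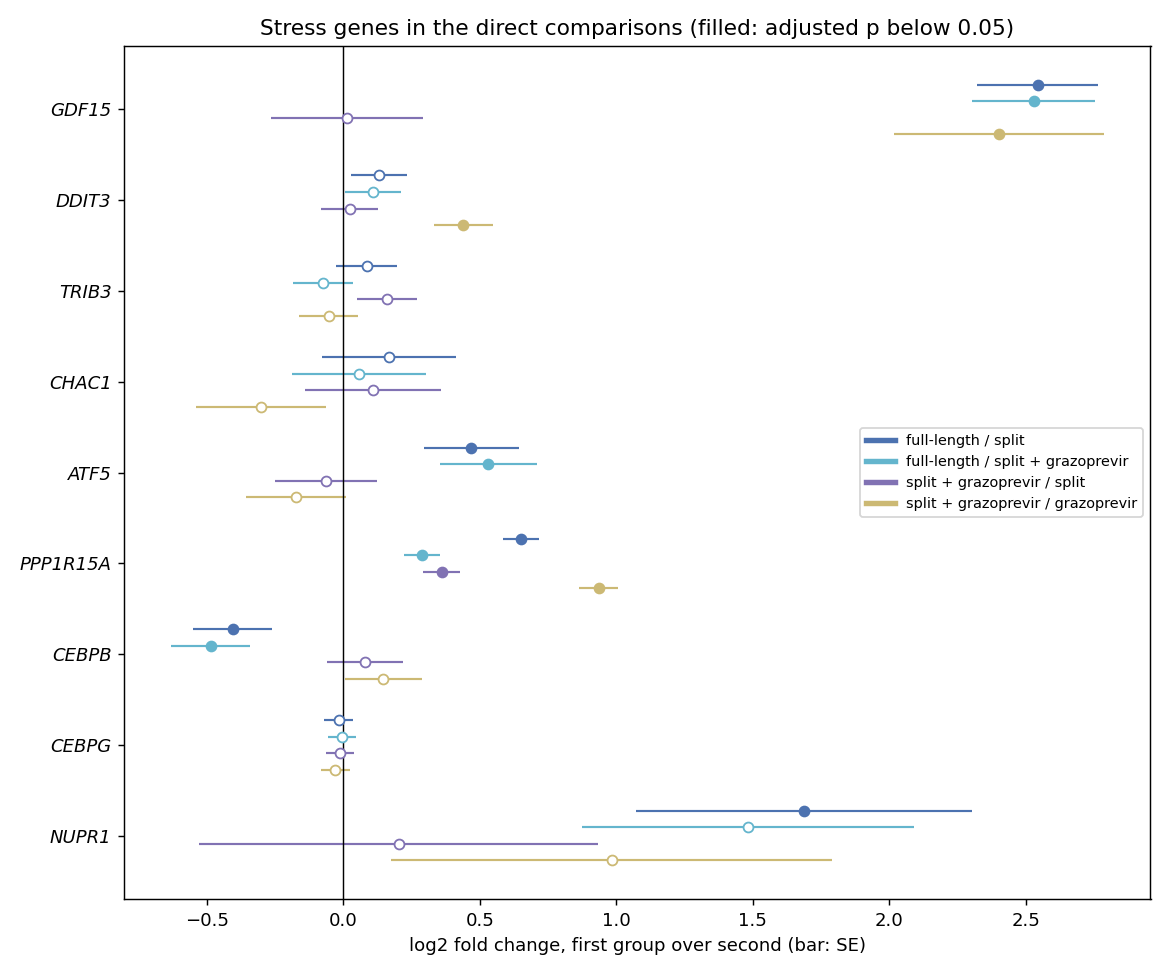
Log2 fold change of the 9 genes in the 4 comparisons that involve split Csy4 but not DMSO-treated untransfected cells (horizontal axis, edgeR fit, bars show the standard error), filled points for adjusted p below 0.05. GDF15 is 2.54 and 2.53 higher with full-length than with the split enzyme, and PPP1R15A is the 1 filled point for triggered against untriggered, at 0.36.

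ATF4 mRNA did not rise in any condition. It was 590, 617 and 597 CPM with DMSO and 321, 317 and 303 with rapamycin, 2 ranges far apart, and it fell by a log2 fold change of -0.94 ± 0.033 (adjusted p = 2.57e-39). With full-length Csy4 it was 528, 526 and 564 CPM, all below DMSO, a fall of -0.16 ± 0.032 (adjusted p = 2.3e-05). This fall is smaller than 1.2-fold, and library-size scaling alone shifted the median of all genes in that comparison by 0.0745. The split enzyme gave -0.02 ± 0.032 untriggered (adjusted p = 0.686) and 0.03 ± 0.032 triggered (adjusted p = 0.554), and its libraries overlapped DMSO. Since ATF4 is controlled largely by translation, its mRNA does not measure its protein.

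Genes that ATF4 induces were counted, most of them for amino acid synthesis, transport and tRNA charging, with some others such as SESN2. More fell than rose in each of the 4 conditions in which GDF15 and PPP1R15A were called higher. The PPP1R15A call with rapamycin was lost in 5 of 13 refits. Of 39 tested genes, 28 fell and 4 rose with full-length Csy4 (median log2 fold change -0.30), 22 fell and 5 rose with untriggered and 19 fell and 4 rose with triggered split Csy4, and 36 fell and 2 rose with rapamycin (median -0.57). Of all tested genes, 24%, 14.1%, 15.6% and 16% were called lower in these comparisons and 22.9%, 14.8%, 16% and 17.2% higher. Their medians were between -0.01 and 0.02. SHMT2, the mitochondrial serine hydroxymethyltransferase, went from 204 ± 5.4 to 115 ± 3.1 CPM with full-length Csy4 (-0.82 ± 0.041, adjusted p = 2.07e-29). Among the 4 rises with full-length Csy4 was SESN2, from 55.8 ± 1.0 to 95.5 ± 1.6 CPM (0.77 ± 0.057, adjusted p = 4.41e-20). SLC7A11, the cystine importer, went from 73.3 ± 1.2 to 8.82 ± 0.54 CPM with rapamycin (-3.05 ± 0.084, adjusted p = 2.4e-41). In the 1.2-fold test the falls numbered 15 with full-length, 5 with untriggered and 7 with triggered split Csy4, and the rises 1 with untriggered split Csy4 and 0 with rapamycin. The 5 rises with untriggered split Csy4 became 2 without DMSO replicate 1 or untriggered replicate 2 and 3 without DMSO replicate 2 or 3, with DESeq2 or with no filter, and the 2 with rapamycin became 1 without DMSO replicate 1 or rapamycin library C. This list was chosen with earlier results of these data known, and its counts are a description.

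**Figure D5:**
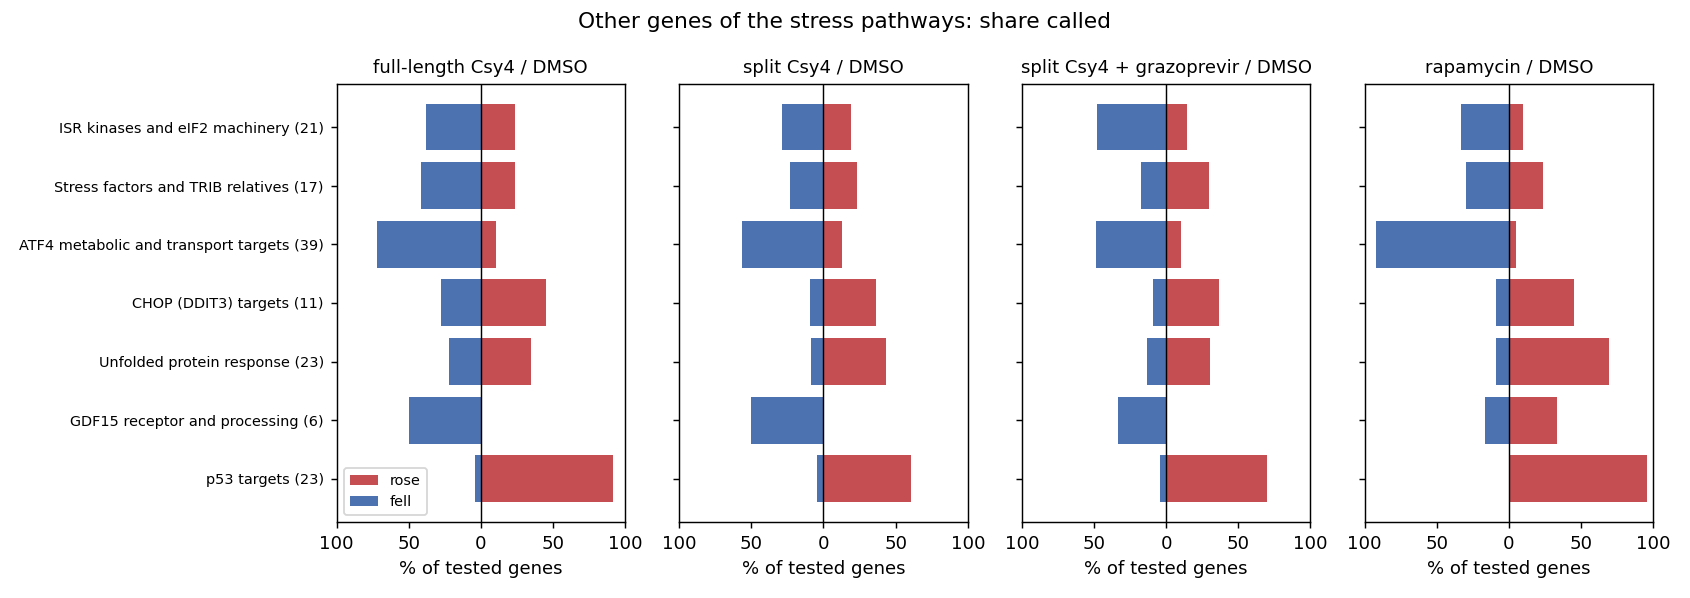
Share of the tested genes of each pathway list that rose (red, to the right) or fell (blue, to the left) against DMSO at an adjusted p below 0.05, in percent, with the number tested in brackets. In the ATF4 metabolic list 28, 22, 19 and 36 of 39 genes are blue, and the p53 list mostly red (21, 14, 16 and 22 of 23).

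The other stress factors were mixed. ATF3, an early stress factor, rose in the order seen for PPP1R15A, with 39.3 ± 1.2 CPM under DMSO, 55.7 ± 0.79 for the untriggered enzyme, 74.9 ± 1.7 for the triggered one and 101 ± 4.2 CPM for the full-length one. Its log2 fold changes against DMSO were 0.50 ± 0.060, 0.93 ± 0.058 and 1.37 ± 0.057 (adjusted p = 1.26e-10, 7.12e-23 and 2.7e-34), and triggered exceeded untriggered split Csy4 by 0.43 ± 0.057 (adjusted p = 7.92e-07, lost in the 1.2-fold test). DDIT4, an mTOR inhibitor, fell with rapamycin from 98.6 ± 0.82 to 24.2 ± 1.9 CPM (-2.03 ± 0.065, adjusted p = 4.8e-41). It also fell with full-length (-0.80 ± 0.058, adjusted p = 2.47e-20), untriggered (-0.54 ± 0.057, adjusted p = 2.57e-12) and triggered split Csy4 (-0.52 ± 0.057, adjusted p = 7.09e-12). Of the 17 stress factors and TRIB relatives, 4 rose and 7 fell with full-length Csy4, where 22.9% of all genes were called higher and 24% lower. These shares also stand behind the CHOP and eIF2 counts with full-length Csy4 that follow. Full-length Csy4 raised 5 of 11 CHOP targets and lowered 3, and among the former was GADD45A, a growth arrest gene, from 28.7 ± 3.6 to 123 ± 4.3 CPM (2.10 ± 0.067, adjusted p = 2.02e-38). Rapamycin raised 5 of the 11 and lowered 1 (17.2% of all genes called higher, 16% lower). Untriggered split Csy4 raised 4 and lowered 1 (14.8% and 14.1%), and triggered did the same (16% and 15.6%). GADD45A also rose with rapamycin (0.64 ± 0.072, adjusted p = 3.92e-11), untriggered (0.71 ± 0.072, adjusted p = 2.2e-12) and triggered split Csy4 (0.98 ± 0.071, adjusted p = 1.95e-18). In the 1.2-fold test 3 CHOP targets rose with rapamycin and 1 with untriggered split Csy4. Of 21 genes of the eIF2 kinases and their machinery, 5 rose and 8 fell with full-length Csy4, and EIF2AK1, the haem-regulated kinase, fell by a log2 fold change of -0.27 ± 0.038 (adjusted p = 8.95e-09). In the 1.2-fold test these counts with full-length Csy4 were 1 and 4 for the stress factors and 1 and 1 for the eIF2 list, and 1 CHOP target fell. EIF2AK1 lies close to the 1.2-fold limit, and the 1 eIF2 gene that fell there is not shown to be EIF2AK1.

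Of 23 genes of the unfolded protein response of the endoplasmic reticulum, 16 rose and 2 fell with rapamycin (median 0.22). Of all genes, 17.2% were called higher and 16% lower with rapamycin, and 22.9% and 24% with full-length Csy4. These shares were 14.8% and 14.1% with untriggered and 16% and 15.6% with triggered split Csy4. The list's counts were not tested between conditions. With rapamycin CALR, a chaperone, went from 790 ± 3.5 to 1135 ± 51 CPM (0.52 ± 0.030, adjusted p = 2.75e-25). With full-length Csy4, 8 rose and 5 fell, and with triggered split Csy4 7 rose and 3 fell. With untriggered split Csy4, 10 rose and 2 fell, and HSPA5, the chaperone BiP, went from 950 ± 14 to 1186 ± 2.4 CPM (0.32 ± 0.029, adjusted p = 6.74e-15). In the 1.2-fold test 6 rose with rapamycin, 2 with full-length, 1 with untriggered and 0 with triggered split Csy4, and 0 fell in each. The 5 falls with full-length Csy4 became 2 with library-size scaling alone. The 2 falls with rapamycin became 1 without DMSO replicate 2 or 3 or rapamycin library B. Triggered against untriggered split Csy4 called 0 of these 23 genes (0.2% of all genes), with 7 below an unadjusted p of 0.05 in edgeR and 7 in DESeq2.

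Because GDF15 is also a p53 target, a list of 23 p53 targets was counted beside it. With full-length Csy4 21 rose and 1 fell (median 1.15), with rapamycin 22 rose and 0 fell (median 0.86), with untriggered split Csy4 14 rose and 1 fell and with triggered 16 rose and 1 fell. Of all genes, 22.9%, 17.2%, 14.8% and 16% were called higher in these comparisons, and 24%, 16%, 14.1% and 15.6% lower. MDM2, the ubiquitin ligase of p53, went from 242 ± 8.1 CPM with DMSO to 1008 ± 16 with full-length Csy4 and 847 ± 23 with rapamycin. Triggered against untriggered split Csy4 called 6 of 23, all higher (0.195% of all genes), among them MDM2 (0.25 ± 0.036, adjusted p = 3.04e-06) and TP53INP1, a p53-induced nuclear protein (0.46 ± 0.070, adjusted p = 1.52e-05), and 0 in the 1.2-fold test. GDF15 was at 0.01 ± 0.28 in that comparison. In the 1.2-fold test the 14 rises with untriggered split Csy4 were 3, and 0 genes of the list fell in any transfected group against DMSO. The fall with untriggered split Csy4 became 2 falls without DMSO replicate 1. That with triggered split Csy4 became 2 without DMSO replicate 1 and 0 without DMSO replicate 2 or 3 or triggered replicate 1 or 2. Several genes of this list, such as GADD45A and SESN2, are also in the CHOP list.

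GFRAL, the GDF15 receptor, had too few counts to be tested. Its co-receptor RET fell with rapamycin from 5.86 ± 0.20 to 2.77 ± 0.12 CPM (-1.08 ± 0.20, adjusted p = 7.5e-06). Of 6 tested genes of the receptor and of pro-protein processing, 0 rose and 3 fell with full-length Csy4, a share called near the 46.9% of all genes. Among them PCSK6, a convertase, went from 29.6 ± 1.9 to 18.8 ± 1.4 CPM (-0.65 ± 0.086, adjusted p = 8.01e-10). With rapamycin 2 of the 6 rose and 1 fell, where 17.2% of all genes were called higher and 16% lower. There FURIN, another convertase, went from 37.7 ± 1.6 to 45.5 ± 0.80 CPM (0.27 ± 0.069, adjusted p = 0.00108). In the 1.2-fold test 0 genes of this list rose with rapamycin.

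Over the 18 libraries, which fall into 6 groups of 3, the genes most like GDF15 in log2 CPM were PLK3, a stress-responsive kinase (Pearson r = 0.957), MSX2 (0.956), TIGAR (0.953), HELQ (0.948) and COL11A2 (0.948), out of 12834 genes that averaged 1 CPM or more. PLK3 rose from 4.21 CPM with DMSO to 16.8 with full-length Csy4 and 8.01 with rapamycin, with 6.24 and 7.95 in the untriggered and triggered split groups. DDIT3 was most like SNHG1 (0.962), SLC3A2, the heavy chain of amino acid transporters (0.960), and MIEF1 (0.960). Among the 36 pairs of the 9 genes, 28 correlations were positive and the median was 0.41. The highest was CHAC1 with CEBPG (0.91) and the lowest ATF5 with CEBPB (-0.48). GDF15 was at 0.84 with PPP1R15A, 0.51 with DDIT3 and -0.22 with CHAC1. These values describe shared group levels and carry no test.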

How the data were processed

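Poly(A) RNA of HEK-293T cells was sequenced and the authors deposited raw read counts per gene symbol for 18 libraries. Per the submitters' processing notes, the build was hg38 and the tools were HTSeq 0.6.1, HISAT2 2.2.1, DESeq2 1.44.0 and cutadapt 1.9.1. Whether counting used strand is not given in the sources used here. The 3 rapamycin columns share 1 header, so they are named A, B and C in column order, with no link to the numbered samples. Groups come from the labels.

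The analysis of these counts used edgeR 4.0.16 in R 4.3.3: filterByExpr (17966 of 59251 genes, 99.84% of counts), TMM factors and 1 robust quasi-likelihood fit of all 18 libraries with 6 group means (common coefficient of variation 4.1%). A call is a Benjamini-Hochberg adjusted p below 0.05 over all tested genes. SE is the size of the log2 fold change over the root of F, and 95% intervals are 1.96 SE on either side. CPM uses TMM factors. Correlations used a prior count of 2. Exon lengths come from GENCODE and sequences from RefSeq, both on GRCh38. Of the 9 genes, 8 matched the promoter table, in 15 windows.

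The 9 genes and the gene lists were chosen with earlier results of these data known. Besides the 9 genes, the text names up to 2 called genes of smallest adjusted p per list and comparison, with ATF4, PPP1R15B and TRIB1 always, and the genes most like GDF15 (5) and DDIT3 (3). Replicates of a group differed by more than sampling noise (chi-square per degree of freedom 1.92 to 6.24). The test was checked on simulated data. Alternatives were other scalings and filters, DESeq2 1.42.0, a 1.2-fold test (glmTreat), fits of only the groups compared, a replicate block and leaving out each library. Figures were drawn with matplotlib in Python.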

Additional observations from a re-analysis of the deposited data

Results flagged for a closer look

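The edgeR test for a different effect of grazoprevir in split Csy4 and in untransfected cells called 0 of the 9 stress genes, with 1 (PPP1R15A) below an unadjusted p of 0.05 in edgeR and in DESeq2. It called 4 of 23 p53 targets and 1 of 23 genes of the unfolded protein response, beside 0.351% of all genes (0.178% higher, 0.173% lower). Of the called genes in these 2 lists, 3 are named here. The interaction, the drug's log2 fold change beside split Csy4 minus its log2 fold change without it, was 0.68 ± 0.10 (SE) for TP53INP1 (adjusted p = 4.69e-05), a p53 target that was at 31.2 ± 1.6 CPM untriggered and 42.9 ± 2.7 CPM triggered (SD, n = 3). It was 0.46 ± 0.092 for the cell cycle inhibitor CDKN1A (adjusted p = 0.00513), at 35.7 ± 1.6 CPM untriggered and 47.5 ± 0.74 CPM triggered. It was -0.21 ± 0.051 for PDIA3, a disulfide isomerase of the endoplasmic reticulum (adjusted p = 0.0359), at 338 ± 7.6 CPM untriggered and 318 ± 5.5 CPM triggered. This 1 call in its list was lost (0 genes) with no filter, in the 1.2-fold test, and without DMSO replicate 1 or 3, grazoprevir replicate 2 or 3, untriggered replicate 2 or 3 or any triggered library. The 4 called p53 targets became 2 without DMSO replicate 1 or 3, untriggered replicate 2 or triggered replicate 1, and 0 in the 1.2-fold test. The levels given here are from split Csy4 cells alone and show only a part of each interaction. The other part is the drug's change in untransfected cells. For TP53INP1, triggered against untriggered split Csy4 gave 0.46 ± 0.070, less than its interaction of 0.68.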

How the results depend on the processing

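Of 412 refits of the 30 called results for the 9 genes, 367 kept direction and call, 45 lost the call and 0 reversed. Of 875 refits of the 60 uncalled results, 811 stayed uncalled in the same direction, 2 became called and 62 reversed sign. The lost calls are given beside their results, and NUPR1 has no value under the filter of 1 CPM in 3 libraries. The largest shift of the median of all genes under another scaling was 0.0745. DMSO counts of GDF15 and NUPR1 (12 and 5 in all) limit their folds, and the cause of the changes below was not tested.

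In the 1.2-fold test, genes called were 3647 for full-length Csy4, 812 for untriggered and 1145 for triggered split Csy4, 1406 for rapamycin and 0 for grazoprevir, each against DMSO, and 1160 for triggered split Csy4 against grazoprevir. They were 6 for triggered against untriggered, 863 and 647 for full-length against untriggered and triggered split Csy4, and 1 for the interaction. Of the 9 genes, 0, 2 and 1 were called in those 3 comparisons between transfected groups. Grazoprevir against DMSO (36) gave 83 genes with DESeq2, 7 with only the groups compared, and 3 to 112 with a library left out. Leaving out a library gave 14 to 141 genes for the interaction and 22 to 29 for triggered against untriggered split Csy4. It gave 0 to 1 of the 9 genes for triggered against untriggered, 2 to 4 for full-length against untriggered (3 with no filter) and 2 to 4 against triggered split Csy4.

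Replicate numbers did not pair the samples: over 30 same-numbered pairs the correlation of deviations was -0.23 to 0.23, 4 exceeded 0.1, and 7 of 15 libraries correlated best with their own number. With the replicate block, grazoprevir against DMSO gave 66 genes, and the members called stayed at 5, 3, 3, 0, 3, 1, 5, 4 and 0 in the 9 comparisons without rapamycin.

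All sign changes were in uncalled log2 fold changes. For CHAC1 with full-length Csy4 against DMSO (-0.003) the value was 0.073 with library-size scaling alone, 0.0068 with median-of-ratios factors, 0.0050 with the 1 CPM filter, 0.0099 with DESeq2 and 0.0049 with only the groups compared. For CEBPG against triggered split Csy4 it was 0.054 with library-size scaling, 0.0027 with median-of-ratios factors, 0.0030 with the 1 CPM filter and 0.0027 with DESeq2. Library-size scaling gave 0.026 for TRIB3 against DMSO and 0.051 for CEBPG against untriggered split Csy4, and no filter gave -0.0081 for CEBPG against DMSO. The ranges with a library left out follow. Full-length Csy4 against DMSO ranged from -0.10 to 0.047 for TRIB3, -0.022 to 0.050 for CEBPG and -0.42 to 0.23 for CHAC1. Untriggered split Csy4 against DMSO ranged from -0.10 to 0.052 for ATF5, -0.0034 to 0.070 for CEBPG and -0.35 to 0.0022 for CHAC1. Triggered split Csy4 against DMSO ranged from -0.027 to 0.10 for TRIB3, -0.17 to 0.0024 for ATF5, -0.016 to 0.057 for CEBPG and -0.24 to 0.069 for CHAC1. Rapamycin ranged from -3.71 to 0.21 for NUPR1. The interaction ranged from -0.17 to 0.050 for CEBPB, -0.023 to 0.15 for TRIB3 and -0.31 to 0.048 for CHAC1. Full-length against untriggered split Csy4 ranged from -0.020 to 0.18 for TRIB3 and -0.24 to 0.41 for CHAC1. Full-length against triggered split Csy4 ranged from -0.12 to 0.025 for TRIB3, -0.023 to 0.014 for CEBPG and -0.35 to 0.30 for CHAC1. Triggered against untriggered split Csy4 ranged from -0.044 to 0.18 for CEBPB, -0.16 to 0.017 for ATF5, -0.027 to 0.0064 for CEBPG, -0.12 to 0.16 for GDF15, -0.25 to 0.44 for NUPR1, -0.065 to 0.21 for CHAC1 and -0.0038 to 0.066 for DDIT3.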
